A study of Mus musculus with 9 samples.

Results

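The collagen genes were taken as every gene whose mouse symbol consists of Col, a number, the letter a and a number, which gave 44 genes of the 46078 in the count data. They were measured by RNA-seq in EGFP-SSCs, 1 line of wild-type mouse spermatogonial stem cells that carries enhanced green fluorescent protein, with 3 biological replicates at each of 0, 24 and 48 h. The 0 h cells grew in GDNF, bFGF and EGF on feeder layers of mouse embryonic fibroblasts that had been stopped from dividing with mitomycin C. The 24 h and 48 h cells had been mixed in equal parts with testicular somatic cells of busulfan-exposed mice aged 3 to 7 days, which keep few germ cells, and grew in medium with BMP-4, BMP-7, retinoic acid, activin A, testosterone, FSH and bovine pituitary extract. Green cells were sorted from these cultures by flow cytometry, so that the medium, the supporting cells and the time all differ between 0 h and the later samples and cannot be told apart. Each library is a bulk sample of a sort and held 16825251 to 22201892 counts.

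Collagens are secreted or membrane-bound proteins in which 3 chains wind into a triple helix. Fibrillar collagens form the cross-striated fibrils of connective tissue, basement membrane collagens form sheets under epithelia and around vessels, and the other classes coat fibrils, form beaded filaments or short networks, or span the cell membrane. In the testis, spermatogonia sit on the basement membrane of the seminiferous tubule, which Sertoli cells and the contractile peritubular myoid cells lay down together, and fibrillar collagen lies outside it. Of the 44 genes, 11 code for fibrillar chains, 8 for basement membrane chains, 6 for the beaded filament collagen VI, 9 for fibril-associated chains, 3 for short-chain networks and 4 for transmembrane collagens, and 3 were grouped as anchoring fibril and unclassed collagens.

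Most collagen genes tested differed between the stem cell culture and the differentiation culture, and most of these were higher in the differentiation culture. At 24 h, 24 of the 40 genes tested were higher than at 0 h and 8 were lower, which is 60% and 20% of them, beside 11.4% and 14.2% of all genes tested (edgeR quasi-likelihood test, Benjamini-Hochberg adjusted p of up to 0.05). At 48 h, 21 were higher and 8 lower than at 0 h, which is 52.5% and 20%, beside 13.0% and 18.5% of all genes. The share of lower calls at 48 h was thus near that of all genes. Between 24 h and 48 h, 10 were higher and 10 lower at 48 h, 25% in each direction beside 8.61% and 12.7%. The median log2 fold change over the collagen genes tested was 1.13 at 24 h against 0 h, 0.79 at 48 h against 0 h and -0.02 at 48 h against 24 h, with medians over all genes tested of 0.01, 0.02 and -0.00. Both comparisons with 0 h use the same 3 libraries of 0 h. In these bulk samples, a change in the number of cells of a type and a change in RNA per cell cannot be told apart.

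The 4 genes not tested were Col9a1 and Col19a1 of the fibril-associated class, Col10a1, a short-chain collagen of growth cartilage, and Col28a1. They passed the expression filter in no comparison, and the highest count of any of them in any library was 11. Among the tested genes, the libraries of 0 h and 24 h did not overlap for 34, beside 43.4% of all genes, those of 0 h and 48 h for 32, beside 48.3%, and those of 24 h and 48 h for 22, beside 39.6%. At least 2-fold differences were called for 21 genes upward and 6 downward at 24 h, for 19 and 8 at 48 h, and for 2 and 4 between 24 h and 48 h. Over all genes tested, such calls were made for 5.58% upward and 7.64% downward at 24 h, 6.63% and 10.0% at 48 h, and 1.16% and 1.81% between 24 h and 48 h.

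**Figure D1:**
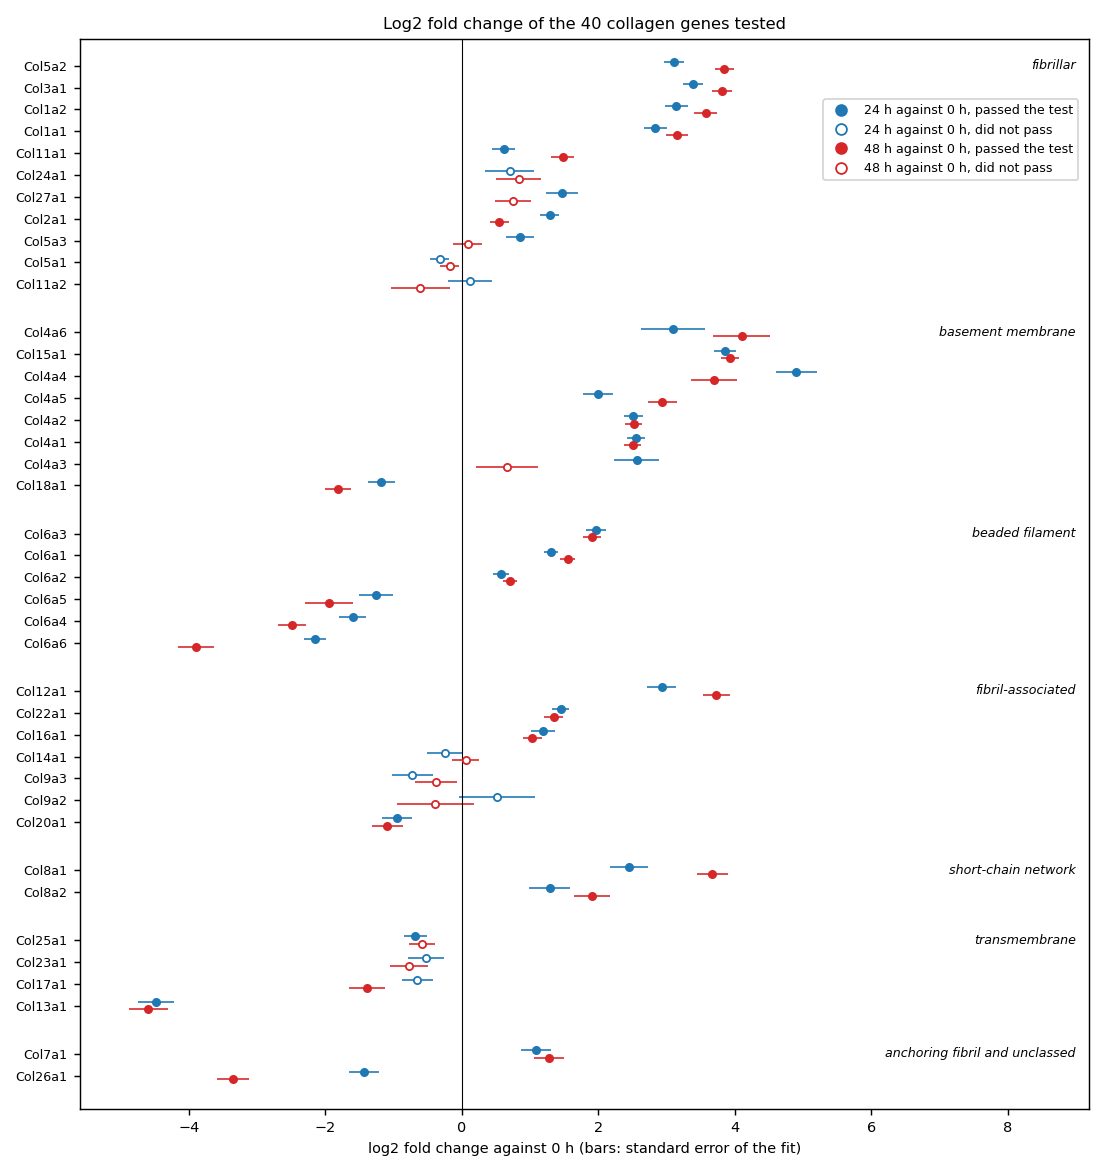
Log2 fold change (x axis) of the 40 tested collagen genes (y axis, by class) at 24 h (blue) and 48 h (red) against 0 h, with the standard error of the edgeR fit as bars and filled circles for genes past an adjusted p of 0.05. Filled circles on the right are genes higher than at 0 h (24 at 24 h, 21 at 48 h), and Col13a1 lies farthest to the left at both times.

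The share of sequencing taken by collagen genes was larger at each later time. The 44 genes together took 0.116%, 0.131% and 0.142% of the counts of the 0 h libraries, 0.383%, 0.426% and 0.393% at 24 h and 0.518%, 0.486% and 0.455% at 48 h. No library of one time reached the range of another. Col1a1, Col1a2 and Col3a1, which code for the chains of the abundant fibrillar collagens I and III, took 19.9% ± 4.11 (SD, n = 3) of the collagen counts at 0 h, 55.7% ± 1.48 at 24 h and 59.4% ± 0.447 at 48 h. Without these 3 genes, the share of library counts was 0.104% ± 0.0144 at 0 h, 0.177% ± 0.00680 at 24 h and 0.198% ± 0.0134 at 48 h. The transmembrane collagens went the other way, taking 11.1% ± 2.35 of the collagen counts at 0 h, then 0.515% ± 0.0304 and finally 0.355% ± 0.0410. As the collagen counts grew, a gene with a steady level would also lose share of them. Of the library counts, this class took 0.0146% at 0 h, 0.00206% at 24 h and 0.00173% at 48 h. Most of it at 0 h was Col13a1, with a mean of 132 CPM, beside 9.90 for Col17a1, 7.22 for Col25a1 and 4.91 for Col23a1.

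**Figure D2:**
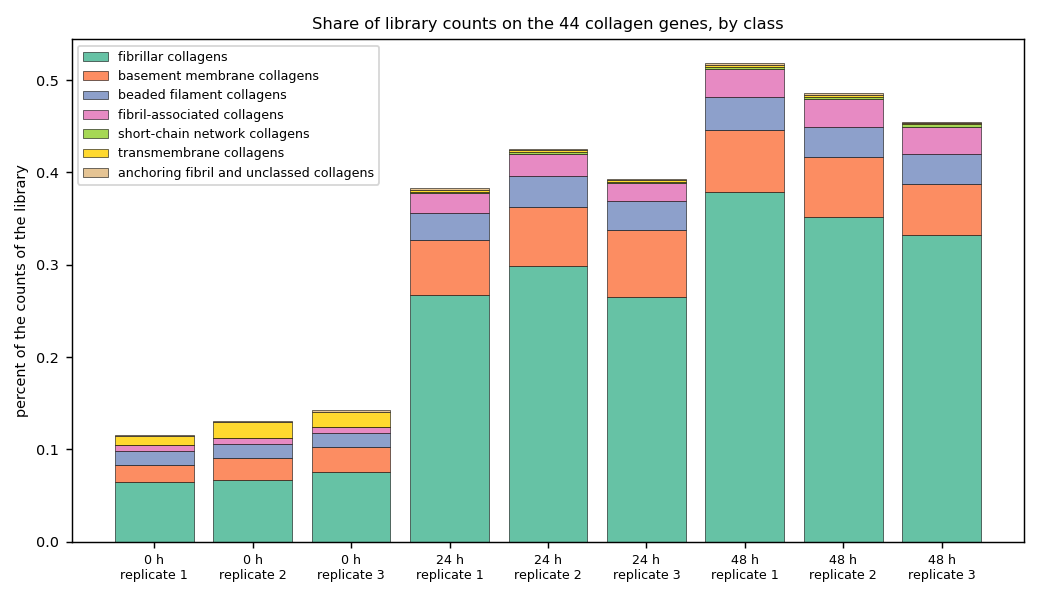
Percent of the counts of each library (y axis) that fell on the 44 collagen genes, stacked by class, for the 9 libraries (x axis). The bars reach 0.116% to 0.142% at 0 h, 0.383% to 0.426% at 24 h and 0.455% to 0.518% at 48 h, and the fibrillar class is the largest part of each bar.

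The order of the genes by level also changed. Here levels are compared between genes as FPKM, CPM divided by the length of the longest transcript in kilobases. At 0 h, the highest collagen gene was Col5a1, a fibrillar chain that limits the width of collagen I fibrils, at 46.7 ± 7.50 FPKM (SD, n = 3). It was followed by Col13a1, a transmembrane collagen found at cell-matrix contacts, at 41.8 ± 12.6, by Col18a1, the basement membrane chain that contains endostatin, at 27.5 ± 6.77, and by Col1a1 at 26.5 ± 4.53. Neither Col5a1 and Col13a1 nor Col18a1 and Col1a1 differed beyond their spread. At 24 h, Col1a1 led with 187 ± 18.8 FPKM, before Col1a2 with 130 ± 11.9 and Col3a1 with 63.7 ± 6.76, and the same 3 genes led at 48 h with 236 ± 16.0, 177 ± 10.8 and 85.9 ± 6.20. Col5a1 stood in place 5 at both later times, with 36.8 ± 1.75 and 41.2 ± 3.26 FPKM. When the exon union was taken as length, Col3a1 came in place 5 at 24 h and in place 3 at 48 h.

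Among the fibrillar collagens, the major chains rose steeply and Col5a1 did not pass the test. At 24 h, 8 of the 11 were higher and 0 lower, with a median log2 fold change of 1.29 over the class. At 48 h, 6 were higher and 0 lower than at 0 h, with a median of 0.83. Between 24 h and 48 h, 5 were higher and 3 lower, with a median of 0.15. Over all genes tested, 11.4% were higher and 14.2% lower at 24 h, and 13.0% and 18.5% at 48 h against 0 h. Between 24 h and 48 h these shares were 8.61% and 12.7%.

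Col1a1 was counted at 162, 128 and 181 CPM (counts per 1000000 counts of the library, scaled by TMM) in the 0 h libraries, at 1088, 1232 and 1013 at 24 h and at 1490, 1414 and 1302 at 48 h. Every later library lay above every 0 h library, and every 48 h library above every 24 h library. The rise was 7.14-fold at 24 h (log2 2.84, SE 0.17, edgeR Benjamini-Hochberg adjusted p = 4.39e-05) and 8.93-fold at 48 h. Col1a2, its partner in collagen I, had 93.4, 63.2 and 81.1 CPM at 0 h, 626, 750 and 712 at 24 h and 1009, 897 and 927 at 48 h. These groups were apart as well, with rises of 8.85-fold and 11.9-fold. Col3a1, the chain of the collagen III of soft tissues, had 37.3, 29.0 and 35.7 CPM at 0 h, 315, 359 and 390 at 24 h and 514, 445 and 475 at 48 h. It rose 10.5-fold at 24 h (log2 3.39, SE 0.15, edgeR Benjamini-Hochberg adjusted p = 1.59e-05) and 14.0-fold at 48 h, again with no overlap.

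From 24 h to 48 h the further rises were small: log2 0.32 (SE 0.09) for Col1a1, 0.43 (SE 0.08) for Col1a2 and 0.42 (SE 0.09) for Col3a1. These calls depended on the fit. With all 9 libraries in 1 fit, the values were 0.34, 0.44 and 0.43, and none of the 3 passed. Col1a1 also did not pass without 24 h replicate 1 (0.31), 24 h replicate 3 (0.28) or 48 h replicate 1 (0.30). Per length, Col1a1 stood at 1.80 ± 0.23 times Col1a2 at 0 h, 1.44 ± 0.15 at 24 h and 1.34 ± 0.08 at 48 h. The size of this ratio depended on the length taken, and the exon union gave 3.78, 3.03 and 2.81. The ratios of 0 h and 24 h overlapped, and those of 0 h and 48 h did not.

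The chains of collagen V, which joins collagen I in the core of fibrils, differed in their calls. Col5a2 had 12, 13.7 and 15.7 CPM at 0 h, 107, 118 and 130 at 24 h and 213, 190 and 192 at 48 h. Its groups were apart in all comparisons, and its rise of 14.4-fold at 48 h (log2 3.84, SE 0.14, edgeR Benjamini-Hochberg adjusted p = 7.67e-06) was the largest of the fibrillar class. Col5a1 had 322, 412 and 443 CPM at 0 h, 309, 325 and 295 at 24 h and 371, 352 and 317 at 48 h, and its groups overlapped. Its differences from 0 h were -0.33 (SE 0.14) and -0.18 (SE 0.14) on the log2 scale, and neither passed. Within a library, Col5a1 stood at 22.4 ± 1.28 times Col5a2 per length at 0 h, 2.08 ± 0.26 at 24 h and 1.38 ± 0.08 at 48 h. Taking the exon union as length gave 32.1, 2.99 and 1.97. An exact permutation test of such a ratio over 3 libraries against 3 cannot give a two-sided p below 0.1, so these ratios are given without a test.

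Col5a3, the third collagen V chain, had 10.4, 12 and 17.6 CPM at 0 h, 24.8, 23.6 and 23.2 at 24 h and 14.7, 14.1 and 13.7 at 48 h. Col2a1, the major collagen of cartilage, had 9.28, 10.8 and 9.96 CPM at 0 h, 26.6, 21.5 and 24.6 at 24 h and 13.3, 15.1 and 15.5 at 48 h. Both were highest at 24 h, where no library overlapped with those of the other times, and both fell from 24 h to 48 h, by 0.77 (SE 0.08) and 0.74 (SE 0.11) on the log2 scale. Against 0 h, Col2a1 was still higher at 48 h, at log2 0.55 (SE 0.14), although without 48 h replicate 2 (0.52), without 48 h replicate 3 (0.51), with no filter on low counts (0.54) and with the replicate number as a block (0.55) it did not pass. The call of Col5a3 at 24 h, log2 0.85, did not pass without 0 h replicate 2 (0.76) or without any 1 of the 24 h replicates (0.81 to 0.88). Col27a1, a fibrillar chain of developing cartilage at 1.68 to 6.93 CPM, followed the same course, with calls higher at 24 h (log2 1.47) and lower at 48 h than at 24 h (-0.72). Its fall did not pass without 24 h replicate 3 (-0.65), without 48 h replicate 3 (-0.61) or with all 9 libraries in 1 fit (-0.71).

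Col11a1, a chain of the collagen XI of cartilage fibrils, was higher at each later time. It had 22.1, 23.0 and 15.9 CPM at 0 h, 34.0, 29.6 and 28.7 at 24 h and 61.9, 53.8 and 54.0 at 48 h. The groups were apart, with a rise of log2 0.61 (SE 0.17) to 24 h and a further 0.87 (SE 0.09) to 48 h. The rise to 24 h did not pass without 0 h replicate 2 (0.71) or without any 1 of the 24 h replicates (0.52 to 0.67). Col11a2 and Col24a1, with 0.658 to 3.17 CPM over all libraries, passed in no comparison.

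**Figure D3:**
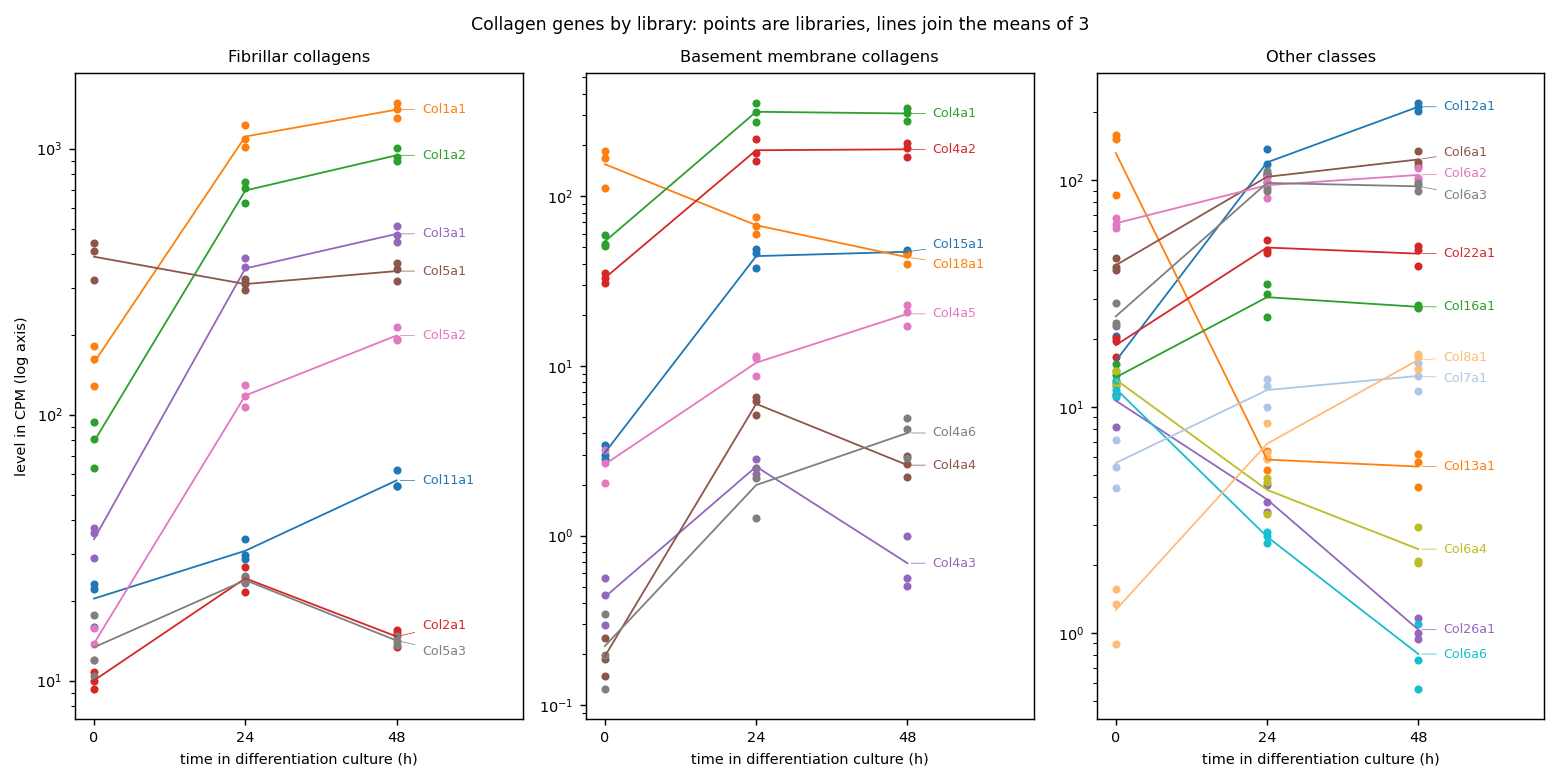
Level in CPM (y axis, log scale) against time (x axis, 0, 24 and 48 h) for the collagen genes with a mean of at least 10 CPM at 1 time and the collagen IV genes, with 1 point per library and lines through the means. In the fibrillar panel, Col5a1 is the uppermost gene at 0 h with 322 to 443 CPM and the fourth at 48 h, and in the right panel Col13a1 falls from 86.3 to 158 CPM at 0 h to 5.25 to 6.36 at 24 h.

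Most basement membrane collagens rose, and Col18a1 fell. At 24 h, 7 of the 8 genes were higher and 1 was lower, with a median log2 fold change of 2.55. At 48 h, 6 were higher and 1 lower than at 0 h, with a median of 2.73. From 24 h to 48 h, 2 were higher and 3 lower, with a median of -0.02. Against 0 h, 87.5% and 75% were higher at the 2 times, beside 11.4% and 13.0% of all genes. The 12.5% lower at both times is under the 14.2% and 18.5% of all genes.

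The 6 chains of collagen IV, the network of every basement membrane, lie in the mouse genome as 3 head-to-head pairs (GRCm38). Col4a1 and Col4a2 lie on chromosome 8 and their annotated ends overlap by 22 bases. Col4a4 (chr1:82448423-82586849, minus strand) and Col4a3 (chr1:82586921-82722059, plus strand) are separated by 71 bases. Col4a6 (chrX:141165403-141474076, minus strand) and Col4a5 (chrX:141475385-141689234, plus strand) are separated by 1308 bases. Bases between the genes of the last named pairs are shown, read on the strand of Col4a4 and of Col4a6 and ending at the base before the gene's start (RefSeq, GRCm38.p6, 5′ to 3′). For Col4a4 and Col4a3 they are the whole gap. For Col4a6 and Col4a5 they are the 200 bases nearest Col4a6, so the start of Col4a5 lies outside them. Capitals mark the letters of the GC box GGGCGG, the CCAAT box and the TATA box TATAAA, each searched on both strands.
Col4a4 to Col4a3, the whole gap, chr1:82586850-82586920: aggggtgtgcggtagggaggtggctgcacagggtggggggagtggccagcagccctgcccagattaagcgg
Col4a6, the 200 bases before its start, chrX:141474077-141474276: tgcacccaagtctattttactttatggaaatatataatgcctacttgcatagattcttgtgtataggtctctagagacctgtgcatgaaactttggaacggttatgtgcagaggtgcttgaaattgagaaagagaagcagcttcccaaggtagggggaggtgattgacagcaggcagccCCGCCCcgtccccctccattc
The first holds none of these letters, and the second holds CCGCCC, the GC box read on the other strand, 21 bases before the start of Col4a6. The 250 bases before the RefSeq start of Col4a5, which are not shown, hold the letters of the CCAAT box and of the GC box.

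Col4a1 and Col4a2, whose chains form the common network, had the highest levels of the class at 24 h and 48 h. Col4a1 had 52.1, 51.1 and 58.8 CPM at 0 h, 274, 312 and 355 at 24 h and 331, 310 and 278 at 48 h. Col4a2 had 33.0, 30.7 and 35.0 CPM at 0 h, 162, 179 and 218 at 24 h and 204, 192 and 169 at 48 h. Both rose within the first day, by 5.85-fold (log2 2.55, SE 0.13, edgeR Benjamini-Hochberg adjusted p = 2.84e-05) and 5.70-fold (log2 2.51, SE 0.14), with no overlap. Between 24 h and 48 h their libraries overlapped and the differences were -0.04 (SE 0.10) and 0.01 (SE 0.11). Their ratio per length was 1.60 ± 0.05 at 0 h, 1.65 ± 0.06 at 24 h and 1.59 ± 0.01 at 48 h. These ratios overlapped between all 3 times.

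Col4a3 and Col4a4, whose chains belong to the network of the kidney glomerulus, were high at 24 h and lower at both other times. Col4a4 had 0.187, 0.149 and 0.249 CPM at 0 h, from 3, 3 and 5 counts, then 5.15, 6.57 and 6.20 at 24 h and 2.93, 2.65 and 2.23 at 48 h. The 3 groups were apart, and the rise to 24 h, log2 4.90 (SE 0.30, edgeR Benjamini-Hochberg adjusted p = 5.14e-05), was the largest of any collagen gene. It fell by 1.21 (SE 0.19) on the log2 scale to 48 h. Col4a3 had 0.561, 0.446 and 0.299 CPM at 0 h, 2.31, 2.51 and 2.83 at 24 h and 0.994, 0.564 and 0.506 at 48 h. It rose by 2.56 (SE 0.33) and then fell by 1.90 (SE 0.31), and at 48 h its libraries overlapped with those of 0 h and the difference, log2 0.66 (SE 0.45), did not pass. Per length, Col4a4 stood at 0.42 ± 0.24 times Col4a3 at 0 h, 1.99 ± 0.20 at 24 h and 3.40 ± 0.79 at 48 h, the first of which rests on few counts.

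Col4a5 and Col4a6, the pair whose chains join in smooth muscle basement membranes, rose at both steps. Col4a5 had 2.68, 3.17 and 2.04 CPM at 0 h, 8.73, 11.4 and 11.1 at 24 h and 22.7, 20.8 and 17.2 at 48 h. Col4a6 had 0.125, 0.347 and 0.199 CPM at 0 h, 1.28, 2.19 and 2.49 at 24 h and 4.24, 4.95 and 2.88 at 48 h. The groups of both genes were apart, with rises at 48 h against 0 h of log2 2.94 (SE 0.21) and 4.10 (SE 0.42). From 24 h to 48 h, Col4a5 rose by 0.95 (SE 0.14) and Col4a6 by 1.01 (SE 0.29). The second of these calls did not pass without 24 h replicate 1 (0.77), 24 h replicate 2 (1.09), 48 h replicate 1 (1.00) or 48 h replicate 2 (0.83), in a joint fit of all 9 libraries (1.02) or with the replicate number as a block (1.01).

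**Figure D4:**
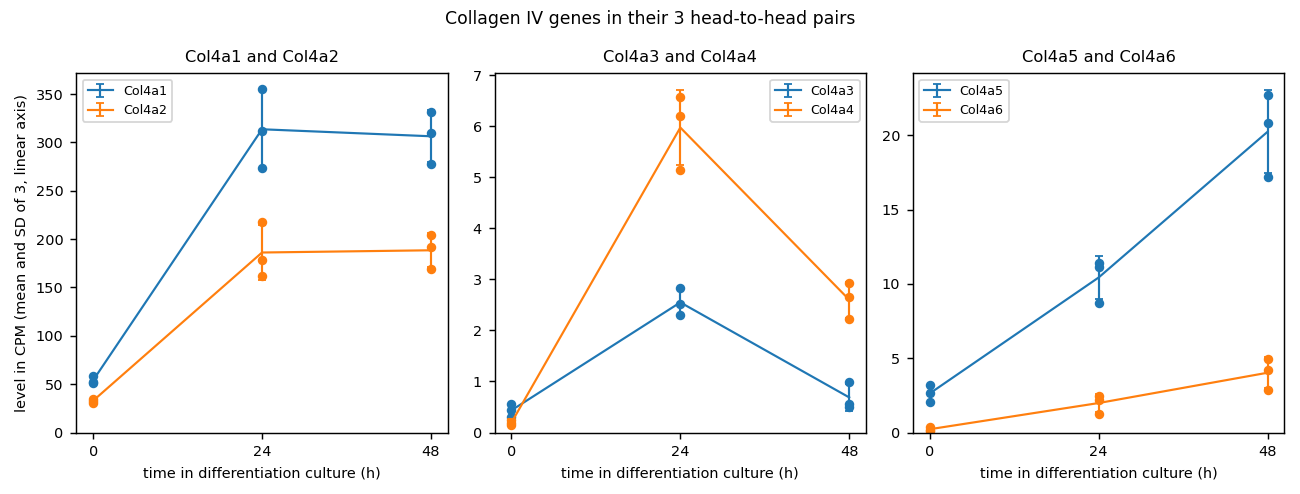
Level in CPM (y axis, linear and different in each panel) against time (x axis, h) for the head-to-head pairs of collagen IV genes, with 1 point per library and bars for the mean and SD of 3. The 24 h and 48 h points of Col4a1 and Col4a2 overlap, Col4a3 and Col4a4 are highest at 24 h, and Col4a5 and Col4a6 are highest at 48 h.

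Col15a1 and Col18a1 are the closest relatives of each other, both with an endostatin domain at the end of the chain, and moved in opposite directions. Col15a1 had 3.43, 2.83 and 2.99 CPM at 0 h, 37.9, 46.4 and 48.6 at 24 h and 48.0, 46.4 and 46.5 at 48 h. It rose 14.5-fold at 24 h (log2 3.86, SE 0.16, edgeR Benjamini-Hochberg adjusted p = 1.57e-05) and did not pass between 24 h and 48 h, at log2 0.07 (SE 0.10). Col18a1 had 111, 167 and 184 CPM at 0 h, 66.5, 59.9 and 75.5 at 24 h and 45.6, 45.4 and 39.8 at 48 h. Its groups were apart at each step, and it fell by 1.18 (SE 0.19) to 24 h and by a further 0.64 (SE 0.10) to 48 h on the log2 scale. With all 9 libraries in 1 fit the second fall, -0.63, did not pass.

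The genes of collagen VI moved in both directions. Col6a1, Col6a2 and Col6a3 code for the chains of the common beaded filament around cells, and all 3 rose. Col6a4, Col6a5 and Col6a6 code for alternative chains and lie side by side on 1 strand of chromosome 9, 27.9 and 28.8 kb apart with 0 protein-coding genes between them, and all 3 fell. Both directions held at 24 h and at 48 h against 0 h, so that 3 of the 6 genes were higher and 3 lower at each time. This is 50% each way, beside 11.4% and 14.2% of all genes at 24 h and 13.0% and 18.5% at 48 h.

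Col6a6 had 11.1, 13.1 and 11.8 CPM at 0 h, 2.80, 2.51 and 2.68 at 24 h and 1.10, 0.564 and 0.759 at 48 h. The 3 times were apart, and the fall at 48 h against 0 h was 14.9-fold (log2 -3.90, SE 0.26, edgeR Benjamini-Hochberg adjusted p = 6.35e-05). Col6a4 had 12.5, 14.3 and 12.7 CPM at 0 h, 4.86, 4.65 and 3.37 at 24 h and 2.93, 2.04 and 2.07 at 48 h. It fell by 1.60 (SE 0.19) to 24 h and by 0.88 (SE 0.23) from 24 h to 48 h on the log2 scale, and the later fall did not pass without 24 h replicate 1 (-0.78), 24 h replicate 2 (-0.82) or 48 h replicate 3 (-0.81). Col6a5, between them in position, had 3.18 to 3.87 CPM at 0 h, 1.18 to 1.71 at 24 h and 0.608 to 1.37 at 48 h. Its libraries of 0 h were apart from the later ones, with log2 -1.26 (SE 0.25) and -1.95 (SE 0.35).

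Col6a1 had 40.1, 41.3 and 45.2 CPM at 0 h, 98.3, 106 and 107 at 24 h and 135, 116 and 120 at 48 h. Col6a2 had 61.8, 64.0 and 68.2 CPM at 0 h, 83.7, 98.4 and 104 at 24 h and 113, 101 and 103 at 48 h. Col6a3 had 28.8, 22.8 and 23.5 CPM at 0 h, 92.7, 110 and 90.2 at 24 h and 95.1, 97.6 and 89.7 at 48 h. All 3 were above their 0 h libraries at both times, with rises at 24 h of log2 1.31 (SE 0.10) for Col6a1, 0.57 (SE 0.11) for Col6a2 and 1.97 (SE 0.15) for Col6a3. Between 24 h and 48 h, Col6a1 alone of the 3 passed, at log2 0.24 (SE 0.07), and this call did not pass without any 1 of the 24 h replicates, without 48 h replicate 1 or 48 h replicate 3, in a joint fit of all 9 libraries or with the replicate number as a block (0.20 to 0.28). The call of Col6a2 at 24 h did not pass without 0 h replicate 2 (0.55), 24 h replicate 2 (0.55) or 24 h replicate 3 (0.52). Col6a2 and Col6a1 lie on the same strand of chromosome 10, 85.2 kb apart with 0 protein-coding genes between them, and per length Col6a1 stood at 0.78 ± 0.01 times Col6a2 at 0 h, 1.31 ± 0.09 at 24 h and 1.40 ± 0.02 at 48 h. In this ratio the 0 h libraries were apart from all others. With the exon union as length, they were apart too, at 1.24 ± 0.02, beside 2.08 ± 0.14 at 24 h and 2.22 ± 0.04 at 48 h. Which of Col6a1 and Col6a2 stood higher at 0 h thus depended on the length taken. Col18a1, which fell, is the next collagen gene on that strand, 326 kb from Col6a1.

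Other collagen genes lie close together too. Col3a1 (chr1:45311538-45349706, plus strand) and Col5a2 (chr1:45374321-45503282, minus strand) are tail to tail with 24.6 kb between them, and they rose 10.5-fold and 8.62-fold at 24 h. Col9a1 and Col19a1, also tail to tail, 9.21 kb apart, are both among the untested genes.

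Of the fibril-associated collagens, some rose. Of 7 tested, 3 were higher and 1 was lower at both times against 0 h, with medians of log2 0.52 at 24 h and 0.06 at 48 h. This is 42.9% higher, beside 11.4% and 13.0% of all genes at the 2 times. The 14.3% lower is no more than near the 14.2% and 18.5% of all genes. Col12a1, which coats collagen I fibrils in tendon and ligament, had 20.5, 14.4 and 12.8 CPM at 0 h, 118, 138 and 105 at 24 h and 211, 203 and 221 at 48 h. It was apart at each step and reached 13.3-fold at 48 h (log2 3.73, SE 0.20, edgeR Benjamini-Hochberg adjusted p = 2.28e-05), after log2 0.81 (SE 0.10) from 24 h to 48 h. Its close relative Col14a1, at 2.67 to 5.06 CPM, passed in no comparison and its groups overlapped.

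Col22a1, known from the junction of muscle and tendon, had 16.5, 19.5 and 20.1 CPM at 0 h, 54.3, 49.4 and 47.9 at 24 h and 49.5, 51.1 and 41.8 at 48 h. Col16a1, which lies beside fibrils in skin and cartilage, had 11.2, 13.8 and 15.4 CPM at 0 h, 25.0, 35.0 and 31.4 at 24 h and 27.6, 28.0 and 27.3 at 48 h. Both were above 0 h in every later library, at log2 1.45 (SE 0.13) and 1.19 (SE 0.17) at 24 h, and their 24 h and 48 h libraries overlapped. Col20a1 was the 1 gene of the class that fell, from 3.44 to 3.87 CPM at 0 h to 1.71 to 2.06 at 24 h and 1.43 to 1.92 at 48 h. Its call at 24 h, log2 -0.96 (SE 0.22), did not pass without 0 h replicate 2 (-0.93), 24 h replicate 2 (-0.89) or 24 h replicate 3 (-0.94), or with the replicate number as a block (-0.96). Col9a2 and Col9a3, chains of the collagen IX of cartilage, had 0.311 to 6.47 CPM and passed in no comparison. Of the transcript of Col9a3, 7.68% overlaps the gene Tcfl5 on the opposite strand, and the strand setting of the counting is not given in the sources used here, so that part of its reads may belong to either gene.

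The short-chain collagens of corneal and vascular matrix rose. Col8a1 had 1.56, 1.34 and 0.896 CPM at 0 h, 5.89, 8.44 and 6.25 at 24 h and 17.1, 14.6 and 16.6 at 48 h. It was apart at each step, at log2 2.45 (SE 0.28) to 24 h and a further 1.22 (SE 0.15) to 48 h. Col8a2 rose from 1.43 to 2.54 CPM at 0 h to 3.68 to 6.15 at 24 h (log2 1.29, SE 0.30) and 6.58 to 9.29 at 48 h. The first of these did not pass without 0 h replicate 2 (1.33), 24 h replicate 2 (1.26) or 24 h replicate 3 (1.13).

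Of the 4 transmembrane collagens, 0 were higher than at 0 h, and 2 were lower at 24 h and 2 at 48 h, with medians of log2 -0.67 and -1.08. With 11.4% and 13.0% of all genes higher, 0 of 4 is not unusual. The lower calls are 50% at both times, beside 14.2% and 18.5% of all genes. Col13a1 showed the largest fall of any collagen gene. It had 86.3, 158 and 152 CPM at 0 h, 5.25, 6.36 and 5.91 at 24 h and 5.70, 6.21 and 4.40 at 48 h. The 0 h libraries lay far above the others, although 0 h replicate 1 had the lowest of the 3, and the 24 h and 48 h libraries overlapped. The fall was 22.4-fold at 24 h (log2 -4.49, SE 0.26, edgeR Benjamini-Hochberg adjusted p = 4.29e-05) and 24.2-fold at 48 h (log2 -4.60, SE 0.29).

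Col17a1, a component of the hemidesmosomes that anchor epithelial cells, had 7.48 to 12.1 CPM at 0 h, 5.40 to 7.31 at 24 h and 2.83 to 4.56 at 48 h. Its libraries of the 3 times did not overlap, and it passed at 48 h against 0 h with log2 -1.39 (SE 0.26). Its fall from 24 h to 48 h, -0.73, did not pass when replicate 1 or 3 of 24 h or of 48 h was left out, nor in a joint fit of all 9 libraries, nor with the replicate number as a block or offsets for GC content and length (-0.75 to -0.56). Col25a1, a transmembrane collagen of neurons, was called lower at 24 h, at log2 -0.68 (SE 0.17), and not at 48 h, at -0.58 (SE 0.19). The call at 24 h did not pass without 0 h replicate 2, without any 1 of the 24 h replicates, with no filter on low counts or with the replicate number as a block (-0.74 to -0.65). Col23a1 had 2.48 to 6.10 CPM and passed in no comparison.

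For the gene with the largest fall and for a gene with one of the largest rises, the 200 bases before the start are shown with the same capitals (RefSeq, GRCm38.p6, strand of the gene, 5′ to 3′).
Col13a1, chr10:61979109-61979308, minus strand: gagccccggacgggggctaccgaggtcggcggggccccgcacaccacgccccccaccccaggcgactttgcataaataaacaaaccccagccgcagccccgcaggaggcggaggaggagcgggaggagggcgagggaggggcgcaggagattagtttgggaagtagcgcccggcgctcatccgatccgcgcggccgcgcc
Col3a1, chr1:45311338-45311537, plus strand: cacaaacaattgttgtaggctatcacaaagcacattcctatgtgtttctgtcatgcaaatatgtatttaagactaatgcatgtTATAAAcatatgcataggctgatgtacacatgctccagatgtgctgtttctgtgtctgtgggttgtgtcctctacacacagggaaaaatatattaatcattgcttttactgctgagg
The first holds none of the letters in these 200 bases, although the TATA letters stand within the 250 bases before its start, and the second holds TATAAA 117 bases before its start. Over the 250 bases before the start, 35 of the 44 genes matched the RefSeq table, with 38 windows, and Col12a1, Col14a1, Col1a1, Col22a1, Col26a1, Col2a1, Col4a3, Col5a2 and Col9a3 did not. The GC box letters stood in 22 of the 38 windows (57.9%, beside 32.7% of all 32851 windows), the CCAAT letters in 13 (34.2%, beside 33.8%) and the TATA letters in 5 (13.2%, beside 12.4%). The GC box letters were held by 10 of the 16 matched genes called higher at 48 h and by 4 of the 7 called lower.

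The remaining genes were Col7a1 and Col26a1. Col7a1, the anchoring fibril collagen of skin, had 4.36, 7.14 and 5.43 CPM at 0 h, 13.2, 12.3 and 10.0 at 24 h and 13.7, 15.6 and 11.7 at 48 h, and rose by log2 1.08 (SE 0.22) and 1.28 (SE 0.22). The first of these did not pass without 24 h replicate 1 (0.98). Col26a1, first described in testis and ovary, had 8.16, 11.4 and 12.4 CPM at 0 h, 3.78, 4.49 and 3.42 at 24 h and 0.942, 0.999 and 1.16 at 48 h. The groups were apart at each step, and the fall reached 10.2-fold at 48 h (log2 -3.35, SE 0.24, edgeR Benjamini-Hochberg adjusted p = 8.09e-05).

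Across the classes, the 40 tested genes fell into a few courses. Calls were higher at every step for 10 genes, namely Col1a1, Col1a2, Col3a1, Col5a2, Col11a1, Col12a1, Col4a5, Col4a6, Col6a1 and Col8a1. A further 9 were higher at both times against 0 h with no call between 24 h and 48 h, among them Col4a1, Col4a2, Col15a1 and Col6a3. Col2a1, Col4a4, Col4a3, Col5a3 and Col27a1 were higher at 24 h and lower at 48 h than at 24 h. Col18a1, Col26a1, Col6a4 and Col6a6 were lower at every step. Col13a1, Col20a1 and Col6a5 were lower at both times against 0 h with no call between 24 h and 48 h. Col25a1 was lower at 24 h against 0 h alone, and Col17a1 at 48 h against both earlier times. The other 7 genes passed in no comparison.

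The genes that modify, cut, join and bind collagens were examined in 4 lists of 58 genes, of which 54 were tested at 24 h. The shares of all genes tested, 11.4% higher and 14.2% lower at 24 h and 13.0% and 18.5% at 48 h against 0 h, are those to set beside the counts of each list. Most procollagen cleavage and cross-linking genes rose, with 8 of 12 higher and 0 lower at 24 h and 9 of 12 higher and 0 lower at 48 h against 0 h, which is 66.7% and 75% higher (medians log2 0.99 and 1.38). Lox, the oxidase that starts cross-links, had 59.9, 29.6 and 23.1 CPM at 0 h, 123, 197 and 154 at 24 h and 335, 270 and 360 at 48 h. It was apart at each step and rose by log2 2.09 (SE 0.37) and 3.10 (SE 0.36). Its relative Loxl1 rose from 4.31 to 5.11 CPM at 0 h to 21.2 to 22.8 at 24 h (log2 2.19, SE 0.14), and Loxl2, a relative that acts on collagen IV, from 37.3 to 37.4 CPM to 83.5 to 109 (log2 1.41, SE 0.13).

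The chaperones and enzymes that act on the chains inside the cell were called in both directions. Of 19 modification and folding genes, 4 were higher and 3 lower at both times, which is 21.1% and 15.8%, the second of them near the share of all genes (medians log2 0.07 and 0.14). P4hb, a subunit of prolyl hydroxylase, had 618, 649 and 782 CPM at 0 h, 571, 600 and 655 at 24 h and 547, 542 and 575 at 48 h, and Serpinh1, the collagen chaperone HSP47, had 131, 184 and 192, then 153, 177 and 207, then 203, 165 and 190. Neither passed in any comparison. P4ha3, a catalytic subunit of prolyl hydroxylase, rose by log2 1.91 (SE 0.43) and 2.82 (SE 0.41) from 0.744 to 2.18 CPM at 0 h, and Colgalt2, a collagen galactosyltransferase, fell by 2.07 (SE 0.28) and 2.20 (SE 0.31) on the log2 scale.

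Of 8 tested collagen receptors, 2 were higher and 1 was lower at both times, which is 25% and 12.5%, the second of them no higher than the share of all genes. Itga11, the integrin subunit for fibrillar collagen, rose from 1.34 to 1.89 CPM at 0 h to 5.03 to 6.20 at 24 h and 7.47 to 9.0 at 48 h (log2 1.78, SE 0.23, and 2.29, SE 0.22). Ddr1, a receptor tyrosine kinase for collagens, fell from 74.8, 96.8 and 118 CPM at 0 h to 33.5, 33.7 and 36.4 at 24 h and 40.7, 37.4 and 33.3 at 48 h (log2 -1.47, SE 0.17, and -1.38, SE 0.18). Itgb1, the shared beta subunit, had 266 to 341 CPM over all libraries and passed in no comparison.

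Laminins and other partners of collagen IV in basement membranes were called in both directions. At 24 h, 3 of 15 were higher and 5 lower, which is 20% and 33.3%, and at 48 h against 0 h 2 of 14 were higher and 7 lower, which is 14.3% and 50% (medians log2 0.04 and -0.29). Over all genes, too, more were called lower than higher. Nid1 and Nid2, the nidogens that link laminin to collagen IV, fell. Nid1 had 357, 378 and 312 CPM at 0 h, 69.1, 75.3 and 73.5 at 24 h and 72.6, 64.7 and 74.5 at 48 h (log2 -2.25, SE 0.11, and -2.31, SE 0.12), and Nid2 had 685, 754 and 767, then 235, 233 and 212, then 159, 169 and 149 (log2 -1.68, SE 0.11, and -2.21, SE 0.11). Both were apart from their 0 h libraries at both times. Of the laminins, Lama2 of muscle rose by log2 1.86 (SE 0.27) and 2.00 (SE 0.27), and Lamc3 rose by 3.73 (SE 0.60) at 24 h from 0 to 0.198 CPM at 0 h. Lama4 was higher too, with means of 13.0, 29.7 and 39.2 CPM at 0, 24 and 48 h. Lamb1 and Lama5, at higher levels, went the other way, with means of 227, 155 and 165 CPM and of 193, 154 and 132 CPM. Hspg2, which codes for perlecan, had 282 to 421 CPM and passed in no comparison.

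**Figure D5:**
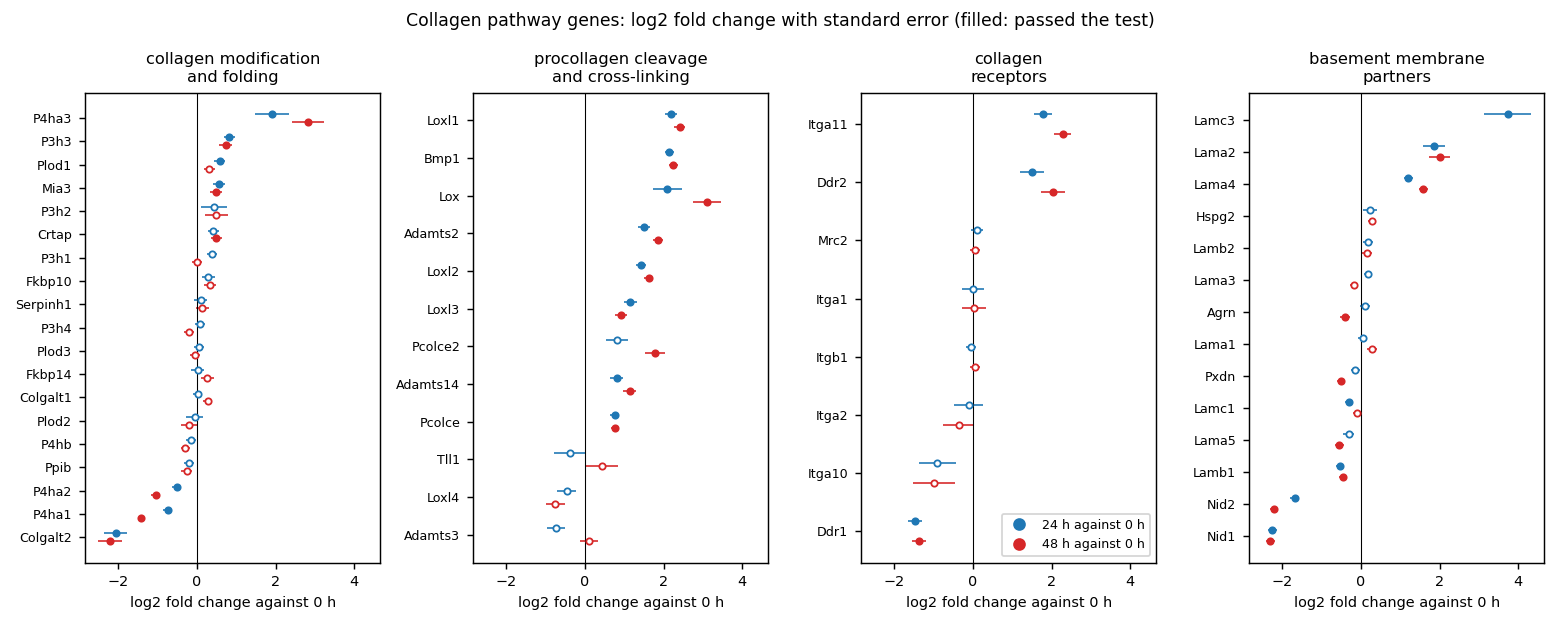
Log2 fold change against 0 h (x axis) of genes that modify, cleave, cross-link, bind or accompany collagens (y axis, in 4 lists) at 24 h (blue) and 48 h (red), with standard errors as bars and filled circles for genes past an adjusted p of 0.05. Cleavage and cross-linking holds 8 and 9 filled circles on the right and 0 on the left, and the nidogens Nid1 and Nid2 lie at -1.68 to -2.31.

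Some markers of supporting cells rose with the collagen genes and others fell. Their calls stand beside 11.4% of all genes higher and 14.2% lower at 24 h and 13.0% and 18.5% at 48 h. Germ cell markers were detected in every library. Dazl had 421 to 1350 CPM at 0 h, 596 to 820 at 24 h and 633 to 881 at 48 h, so it was most spread at 0 h. The 8 markers summed to 1973 to 3108 CPM at 0 h, 2189 to 2434 at 24 h and 2089 to 2302 at 48 h. Of these, 1 was higher and 1 lower at 24 h, and 0 and 3 at 48 h against 0 h, where 12.5% each way at 24 h is near the share of all genes. The largest fall was in Gfra1, the GDNF receptor of stem cells, at log2 -2.65 (SE 0.11) and -3.67 (SE 0.12), picked out after its values were seen. The 6 myoid markers summed to 13.7 to 15.6 CPM at 0 h, 146 to 207 at 24 h and 263 to 321 at 48 h, with 5 of 6 tested higher at both times, and Acta2, the actin of smooth muscle, rose from 1.49 to 2.59 CPM to 81.8 to 114 and 144 to 187. The 10 stromal markers summed to 713 to 793, 842 to 1053 and 1297 to 1339 CPM. Of these, 4 were called up and 2 down at 24 h, and 5 up and 2 down at 48 h. Most of the sum was Fn1, with 446 to 496 CPM at 0 h, 500 to 696 at 24 h and 859 to 907 at 48 h. The 2 that fell at both times were Thy1, with means of 47.7, 16.8 and 23.9 CPM, and Twist1, with 15.5, 6.40 and 7.57. The 7 Sertoli markers summed to 14.4 to 18.3, 35.1 to 49.3 and 45.2 to 47.6 CPM. Of 6 tested, 5 were higher at both times and 1, Sox9, was lower at 24 h (log2 -0.80, SE 0.19). Sox9 had 10.5 to 13.4, 5.61 to 7.71 and 6.43 to 9.41 CPM, and its fall at 48 h against 0 h did not pass. Gata4 rose from 0.797 to 1.93 CPM to 12.4 to 15.8 and 16.6 to 17.8. The 6 Leydig markers summed to 4.48 to 6.79, 24.6 to 38.5 and 25.2 to 32.5 CPM with 2 and then 3 of 3 tested higher, and Cyp11a1 rose from 0.249 to 0.685 CPM to 15.6 to 24.0 and 11.4 to 17.8. Their part in the collagen results was not tested.

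Some defining markers were at or near 0. Fshr of Sertoli cells, Lhcgr of Leydig cells, and C1qa and C1qc of macrophages had at most 3 counts in every library. The 5 endothelial markers summed to 43.3 to 47.2 CPM at 0 h, 14.4 to 18.9 at 24 h and 12.3 to 12.8 at 48 h. Of 4 tested, Kdr and Pecam1 were lower and Tek was higher at both times against 0 h, and Kdr had 22.8 to 26.1, 4.56 to 4.93 and 1.97 to 3.17 CPM. The 6 macrophage markers had sums of 0.448 to 2.44 CPM in all libraries, and of them Csf1r, with 0.149 to 1.51 CPM, was the 1 gene tested and was called higher at 24 h than at 0 h (log2 1.90, SE 0.52).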

How the data were processed

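RNA-seq was done on 9 libraries of sorted EGFP-SSCs, grouped by the time in their titles. The authors deposited counts, the reads on each Ensembl gene, without normalization. Their processing notes name fastp, HISAT2, featureCounts and GRCm38, and the annotation release and strand setting are not given in the sources used here. Symbols, positions and lengths came from GENCODE M21, which held 45229 of 46078 identifiers, and the other 849 took at most 0.121% of any library. Within each group, the libraries differed beyond sampling noise, most so at 0 h. Chi-square over degrees of freedom was 35.5 to 81.4 at 0 h, 7.97 to 13.4 at 24 h and 7.13 to 26.0 at 48 h. Beyond the label of biological replicates, nothing tells whether they were separate cultures, so p-values measure the spread between these samples.

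After filterByExpr and TMM scaling, edgeR 4.0.16 (R 4.3.3) was used for a two-sided quasi-likelihood test on the 6 libraries of each comparison, with Benjamini-Hochberg adjustment over all genes tested and a threshold of 0.05. CPM and FPKM were computed from the counts with TMM scaling over 9 libraries, FPKM with the longest transcript. The procedure was tested on simulated data. Values of every library are given for collagen genes with a mean of at least 10 CPM at 1 time and for the collagen IV genes. Of each pathway list, the 2 highest genes and the largest called rise and fall against 0 h are named, except for 1 gene that is counted in its list but not reported here by name or plotted, and of each marker list the highest gene and those with at most 3 counts. The collagen genes, classes and lists were chosen with earlier results of these data known. Alternatives were DESeq2 1.42.0, its size factors or library size alone, no filter on expression or a minimum of 10 counts per library, a joint fit of all 9 libraries, replicate numbers as a block, offsets for GC content and length, and leaving out each library. The union of exons as gene length was added after the data were seen.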

Additional observations from a re-analysis of the deposited data

How the results depend on the processing

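Of the calls of collagen genes, 25 of 32 at 24 h against 0 h, 28 of 29 at 48 h against 0 h and 11 of 20 at 48 h against 24 h passed under every alternative that gave a value. For 3 of the 25 (Col4a3, Col4a4, Col4a6) and 2 of the 28 (Col4a4, Col4a6), the minimum of 10 counts left no value. With all 9 libraries in 1 fit, 5 collagen genes instead of 10 were higher at 48 h than at 24 h. Of the collagen pathway genes, 3 instead of 11 were higher and 4 instead of 9 lower. Over all genes tested, that fit called 285 instead of 1506 higher, among 1043 instead of 3732 calls in either direction. When single libraries were left out, 7 (48 h replicate 1 or 3) to 13 pathway genes fell between 0 h and 48 h, beside 11 in all libraries. Likewise 6 (48 h replicate 1) to 12 were higher at 48 h than at 24 h, with 7 when 48 h replicate 3 or 24 h replicate 1 or 2 was left out. Over all genes tested, these fits made 3471 to 7116 calls in either direction at 48 h against 0 h, beside 5602 in all libraries. At 48 h against 24 h, they called 684 to 2094 genes higher, beside 1506. Same-numbered replicates did not deviate together (correlations of -0.28 to 0.20, beside -0.39 to 0.38 for replicates of different number). With 3 libraries per group, this cannot settle whether the numbers mark pairs, and the main fit did not use them. With the replicate number as a block, 24 collagen genes were higher and 6 lower at 24 h, 20 and 8 at 48 h, and 8 and 9 at 48 h against 24 h. In that fit, 5 pathway genes were higher at 48 h than at 24 h. Over all genes tested, the block left 1256 higher at 24 h, 1595 at 48 h and 921 at 48 h against 24 h. The main fit called 2002, 2310 and 1506 of them higher.

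Without TMM, scaled by library size only, the median of all genes went on the log2 scale from 0.01 to 0.12 at 24 h and from 0.02 to 0.13 at 48 h against 0 h, and the share of higher genes among all calls from 44.5% to 57.1% and from 41.2% to 52.8%, while the collagen calls were 24 higher and 8 lower, and 22 and 8. Directions that reversed were all of genes with no call. At 24 h against 0 h, leaving out 1 library gave -0.13 (without 0 h replicate 1) to 0.31 for Col11a2. At 48 h against 0 h, the ranges were -0.028 (without 0 h replicate 1, and as low without 48 h replicate 3) to 0.16 for Col14a1, -0.066 (without 0 h replicate 1) to 0.36 for Col5a3 and -0.82 to 0.012 (without 0 h replicate 3) for Col9a2. At 48 h against 24 h, they were -0.22 to 0.019 (without 48 h replicate 3) for Col13a1, -0.029 (without 24 h replicate 1) to 0.16 for Col15a1, -0.043 (without 48 h replicate 1) to 0.19 for Col25a1, -0.14 to 0.072 (without 24 h replicate 3) for Col4a1, -0.086 (without 24 h replicate 1) to 0.15 for Col4a2 and -0.098 to 0.030 (without 24 h replicate 2) for Col6a3. There, offsets for GC content and length gave 0.12 for Col13a1, 0.063 for Col16a1, 0.036 for Col20a1 and 0.11 for Col4a1. The cause was not tested. Depth limits the genes with few counts, Col4a3, Col4a4 and Col4a6 at 0 h among them.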
